A study of Arabidopsis thaliana with 8 samples.

Results

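The stomatal lineage regulators described here are 10 Arabidopsis genes that start, pattern and complete the cell lineage from which stomata form. They are 10 of the 37573 genes in the deposited count table. They were chosen from their DEX against mock values in this same table, so those values are given as a description, without p-values. The genes are *SPEECHLESS* (*SPCH*), *MUTE*, *FAMA*, *SCREAM* (*SCRM*), *TOO MANY MOUTHS* (*TMM*), *EPIDERMAL PATTERNING FACTOR1* (*EPF1*), *EPF2*, *STOMATAL DENSITY AND DISTRIBUTION1* (*SDD1*), *BREAKING OF ASYMMETRY IN THE STOMATAL LINEAGE* (*BASL*) and *POLAR*.

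Hypocotyls of 4-week-old *SMXL7pro:SMXL7d53-GR* plants, labelled WT for genotype, were sequenced in 8 libraries. In 4 of them the plants had been watered with 15 µM dexamethasone (DEX) and in 4 with the DMSO solvent alone (mock), and all were harvested 5 h later. The transgene drives SMXL7d53, a form of the strigolactone signalling repressor SMXL7 that resists degradation, from the *SMXL7* promoter, and its glucocorticoid receptor part makes the protein depend on DEX. Both groups carried it and none of the 8 libraries came from plants without it, so effects of DEX itself and of the fusion protein cannot be told apart.

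Stomata are pores between a pair of guard cells in the epidermis of leaves, stems and, in seedlings, hypocotyls. The basic helix-loop-helix factor SPCH starts the lineage by driving asymmetric divisions, MUTE ends them, and FAMA completes guard cell differentiation, each paired with SCRM or its relative SCRM2. The secreted peptides EPF2 and EPF1 are read by receptor kinases of the ERECTA family together with the receptor-like protein TMM, and a MAP kinase cascade passes the signal on to SPCH. SPCH, TMM, EPF2, BASL and POLAR act early in the lineage and are called early below, and MUTE, FAMA and EPF1 act later and are called late.

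Between 47976811 and 85953231 reads were counted on genes per library. The first principal component held 67.5% of the variance and separated DEX from mock libraries. Markers of the labelled tissue were present, with the cambium receptor gene *PXY* at 11145 ± 620 normalised counts in mock libraries (mean ± SD, n = 4). The 6 root markers together gave between 29.5 and 68.5 normalised counts in any library. Leaf genes were present too, as 10 of them, named below, summed to 21860 ± 1809 normalised counts in mock libraries. The 11 genes of hypocotyl tissues summed to 44591 ± 1384 there. A normalised count is a raw count scaled by the TMM method to the mean effective library size. A gene was called lower or higher where the quasi-likelihood test of edgeR gave an adjusted p under 0.01, the fold change passed 1.5 and the mean normalised count was over 50. Of 21289 tested genes, 1.81% were called lower and 4.64% higher by this rule, and the median log2 fold change of all of them was -0.006.

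Of the 10 regulators, 8 had enough counts to be tested, and 6 of these were called lower and 0 higher. In 8 of the 10, all DEX libraries lay below all mock libraries, which was so for 15.1% of all tested genes. Since the genes were chosen on this contrast, nothing is read from these shares. All 5 early genes and the late gene *FAMA* were among the 6 called, the late genes *MUTE* and *EPF1* had too few counts to be tested, and *SCRM* and *SDD1*, which belong to neither stage, were not called. In RNA from a whole organ, fewer cells of the lineage and less RNA per cell cannot be told apart.

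To show upstream sequence of genes of this set with and without a difference between the groups, the 250 bases before 3 of them are given 5′ to 3′ on the strand of the gene, from RefSeq's TAIR10.1. *EPF2* (chr1:12472618-12472867, plus strand) had the most E-boxes of the 10 genes, *TMM* (chr1:30129650-30129899, minus strand) had the lowest fold change, and *SCRM* (chr3:9835280-9835529, minus strand) had nearly the same level in both groups. Capitals mark matches to CANNTG, the E-box read by basic helix-loop-helix factors, in *EPF2*, and to ATAACAA, a motif bound by the SMXL7 relative SMXL6, in *SCRM*, and no match was found in *TMM*.
EPF2: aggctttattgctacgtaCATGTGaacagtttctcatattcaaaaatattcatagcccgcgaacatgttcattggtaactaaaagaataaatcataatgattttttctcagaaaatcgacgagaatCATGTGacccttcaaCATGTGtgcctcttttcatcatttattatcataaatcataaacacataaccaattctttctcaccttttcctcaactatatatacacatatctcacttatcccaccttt
TMM: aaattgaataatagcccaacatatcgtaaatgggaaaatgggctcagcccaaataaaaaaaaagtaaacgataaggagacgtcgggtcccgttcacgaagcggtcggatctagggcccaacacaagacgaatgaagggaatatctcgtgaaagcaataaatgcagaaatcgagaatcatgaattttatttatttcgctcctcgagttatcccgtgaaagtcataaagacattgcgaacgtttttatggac
SCRM: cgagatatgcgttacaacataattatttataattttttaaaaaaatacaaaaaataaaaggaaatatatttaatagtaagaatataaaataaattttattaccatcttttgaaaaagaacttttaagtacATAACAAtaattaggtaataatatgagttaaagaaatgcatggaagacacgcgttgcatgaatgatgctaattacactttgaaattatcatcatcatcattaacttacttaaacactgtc
Both strands were searched. The E-box was found 12 times in 7 of the 10 upstream windows, against 55.3% of 27443 windows of the same length before protein-coding genes. *SPCH*, *TMM* and *SCRM* had none. The G-box CACGTG, which is one form of the E-box, was found in 0 of the 10 windows and in 6.49% of all windows. ATAACAA was found in 1 of the 10 and in 11.6% of all windows. The 6 genes called lower thus held windows with and without E-boxes.

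*SPCH* (AT5G53210, chr5:21586219-21589255, minus strand, 3 exons) was measured at 470.5, 579.7, 372.2 and 556.8 normalised counts in mock replicates 1 to 4. DEX replicates 1 to 4 held 231.8, 165.7, 175.7 and 169.3. The highest DEX library, replicate 1, was still below the lowest mock library, replicate 3. The mean was 495 ± 94.3 in mock and 186 ± 31.1 in DEX libraries, and the log2 fold change of -1.41 (SE 0.15) placed *SPCH* 19th from the bottom among the 386 genes called lower. Its nearest neighbour on the chromosome is *TRY* (AT5G53200), a hair patterning gene.

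*TMM* (AT1G80080, chr1:30127819-30129649, minus strand, 1 exon), whose product binds the EPF peptides at the cell surface without a kinase domain of its own, was at 541.8, 682.4, 465.1 and 585.8 normalised counts in mock libraries. The DEX libraries held 241.9, 167.6, 131.8 and 169.3. Its log2 fold change of -1.68 (SE 0.17) was the lowest of the 10 regulators and the 10th lowest of all called genes. DEX libraries held on average 31.2% of the mock level, and the gap between the groups was wider than the range within either.

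*EPF2* (AT1G34245, chr1:12472868-12473974, plus strand, 3 exons), the peptide gene of early lineage cells that limits entry into the lineage, had 141.2, 133.4, 95.7 and 153.1 normalised counts in mock libraries. DEX libraries had 86.9, 50.1, 45 and 68. DEX replicate 1 came close to mock replicate 3 without reaching it. The log2 fold change was -1.07 (SE 0.21), with raw counts between 40 and 69 in DEX libraries, so that this gene was measured with less precision than *SPCH* or *TMM*.

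The polarity genes *BASL* and *POLAR*, whose products gather at one side of a dividing lineage cell, were lower to a like degree. *BASL* (AT5G60880, chr5:24488289-24489836, minus strand, 4 exons) was at 130.5, 194.8, 103.4 and 151.9 normalised counts in mock and at 75.6, 57.8, 60.8 and 82.1 in DEX libraries. *POLAR* (AT4G31805, chr4:15385280-15387097, plus strand, 3 exons) was at 431.3, 547.8, 334.9 and 448.4 in mock and at 250.7, 204.2, 184.7 and 178.3 in DEX libraries. Neither gene overlapped between groups, and their log2 fold changes were -1.06 (SE 0.20) and -1.10 (SE 0.15). In TAIR10.1, *POLAR* shares 20.2% of its exon bases with AT4G31810, while the exons of the other 9 genes overlap no other gene. Reads on shared bases are left out by the counting rule if the annotation used for counting, which is not given, has the same overlap.

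*FAMA* (AT3G24140, chr3:8715118-8718211, minus strand, 5 exons), the only late gene with counts enough for the test, was at 315.1, 418, 251.2 and 292.9 normalised counts in mock libraries. DEX libraries held 219.2, 156, 167.8 and 168.1. The highest DEX value and the lowest mock value lay closer to each other than in *SPCH* or *TMM*. Its log2 fold change was -0.84 (SE 0.16), 159th of the 386 genes called lower. FAMA is also known to be needed for myrosin cells, the idioblasts that store myrosinases.

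*MUTE* (AT3G06120, chr3:1846442-1848259, plus strand, 3 exons) and *EPF1* (AT2G20875, chr2:8982863-8983814, minus strand, 2 exons), the peptide gene of later lineage cells that spaces stomata, were near the limit of these libraries. For *MUTE*, 21, 9, 32 and 12 raw reads were counted in mock and 6, 3, 6 and 5 in DEX libraries. For *EPF1*, the counts were 15, 7, 28 and 7 in mock and 1, 7, 6 and 3 in DEX libraries. After normalisation every DEX library was below every mock library in both genes, with means of 15.6 ± 4.98 and 5.90 ± 2.07 for *MUTE* and of 11.8 ± 5.40 and 4.65 ± 2.64 for *EPF1* in mock and DEX libraries. In both genes mock replicate 3 was the highest library, whereas it was the lowest mock library in all 6 called genes.

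*SCRM* and *SDD1* stood apart from the other 8 genes. *SCRM* (AT3G26744, chr3:9832667-9835279, minus strand, 2 exons), which also acts in cold response, was at 4747.3, 4924.7, 4113.6 and 4899.3 normalised counts in mock and at 4957.1, 4202.2, 4143.2 and 4309.3 in DEX libraries. *SDD1* (AT1G04110, chr1:1061297-1063809, minus strand, 1 exon), which encodes a subtilisin-like protease, was at 71.3, 56.7, 68.3 and 59.1 in mock and at 63, 58.8, 67.6 and 83.4 in DEX libraries. The groups overlapped in both genes, with log2 fold changes of -0.08 (SE 0.07) for *SCRM* and 0.07 (SE 0.15) for *SDD1*. *SPCH* and *FAMA* were thus lower in DEX libraries, while their partner *SCRM* differed by less than the spread between libraries.

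**Figure D1:**
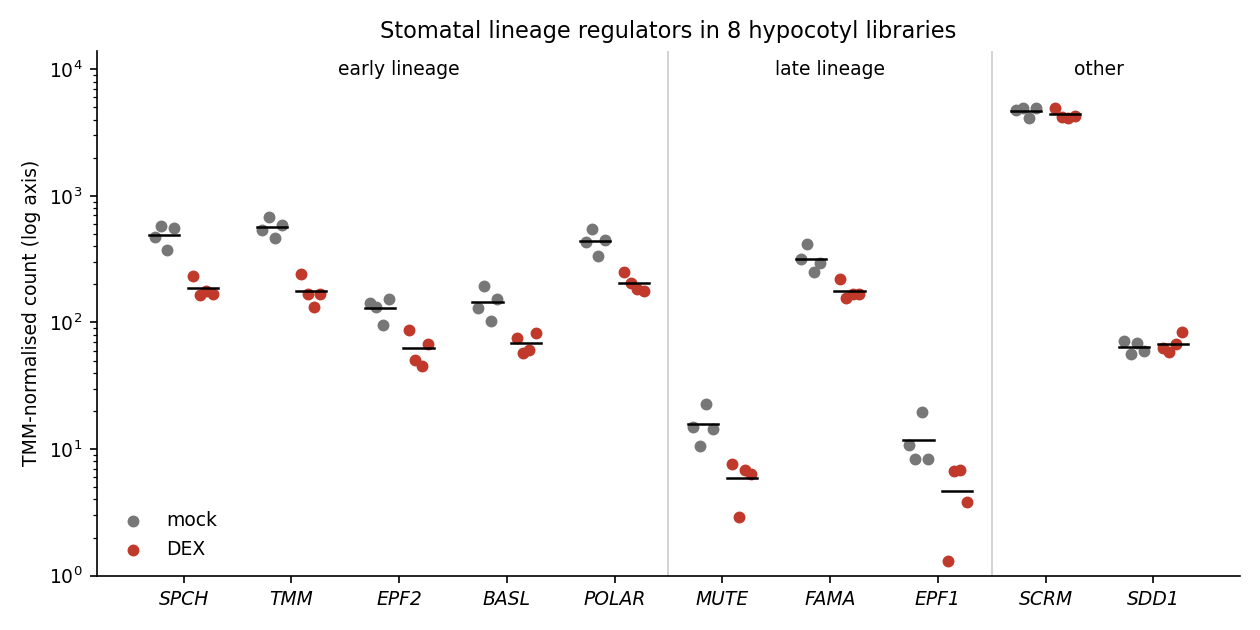
TMM-normalised count (log axis) of each of the 10 regulators in the 4 mock (grey) and 4 DEX (red) libraries, in order of replicate number from left to right, with the mean as a black line. DEX libraries lie below all mock libraries in 8 genes, whereas the groups overlap in *SCRM* and *SDD1*.

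Levels were compared between the genes as CPM, the share of counts scaled to a common library size, per kilobase of exon. In mock libraries *SCRM* was highest, at 30.6 ± 2.49, followed by *TMM* at 5.13 ± 0.818, *POLAR* at 4.75 ± 0.940 and *SPCH* at 3.75 ± 0.714. *EPF2* was at 2.61 ± 0.494, *FAMA* at 2.22 ± 0.493 and *BASL* at 1.89 ± 0.502. *SDD1* at 0.419 ± 0.0463, *MUTE* at 0.274 ± 0.0873 and *EPF1* at 0.224 ± 0.103 were lowest. Along this order, only *SCRM* and *TMM*, and *BASL* and *SDD1*, had ranges that did not overlap with that of the next gene, so the 10 genes fell into a single abundant gene, 6 genes of middle level and 3 scarce ones. In DEX libraries the order was the same but for *TMM*, at 1.60 ± 0.416, and *POLAR*, at 2.20 ± 0.353, which changed places with overlapping ranges.

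**Figure D2:**
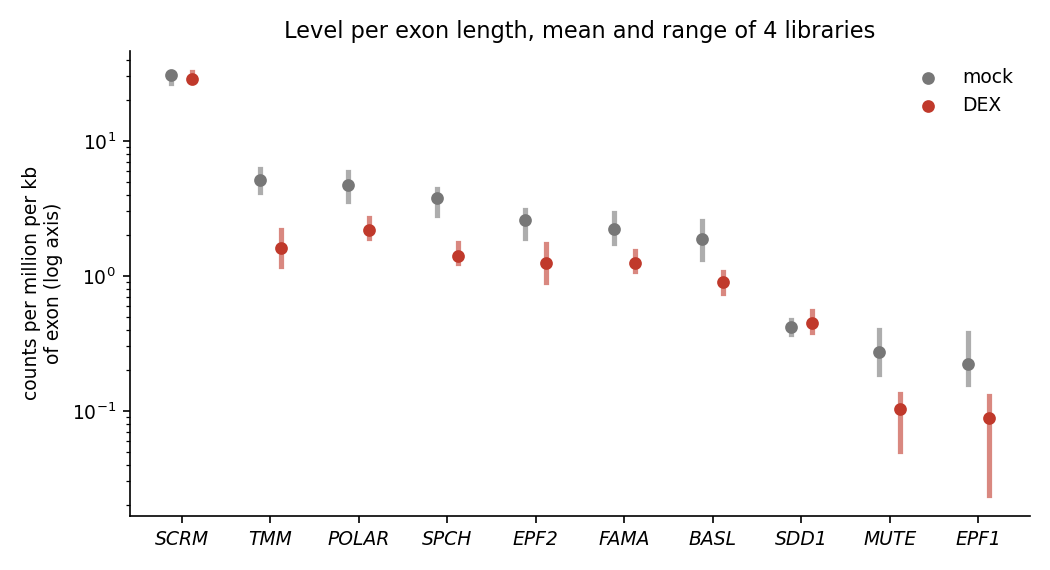
CPM per kilobase of exon (log axis) for the 10 regulators, ordered by their mock mean, with points for the mean and bars for the range of 4 mock (grey) and 4 DEX (red) libraries. *SCRM*, at 30.6 in mock libraries, is far above the others, and *SDD1*, *MUTE* and *EPF1* are below 0.5 in mock libraries.

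Early and late genes were then compared by their summed normalised counts. The 5 early genes together gave 1780 ± 323 in mock libraries and 699 ± 128 with DEX (mean ± SD of 4 libraries), so that DEX libraries held 39.3% of the mock level. The 3 late genes, most of whose counts came from *FAMA*, gave 347 ± 63.1 and 188 ± 27.3, or 54.3%. Single DEX libraries ranged from 33.6% to 49.8% of the mock mean for the early and from 47.8% to 65.8% for the late sum.

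Within a library, the early sum was between 4.67 and 6.0 times the late sum in mock and between 3.30 and 3.90 times in DEX libraries, without overlap. This ratio does not depend on how libraries are scaled. Likewise *TMM* was at 121 ± 11.8 counts per 1000 counts of *SCRM* in mock and at 39.9 ± 6.95 in DEX libraries, and *SPCH* at 105 ± 12.7 and 42.0 ± 3.50. The late sum is mostly *FAMA*, at 55.7% of mock. The scarce late genes *MUTE* and *EPF1* were at 37.7% and 39.5% of mock, below the early genes *EPF2*, *BASL* and *POLAR* at 47.8%, 47.6% and 46.4%, so the gap between the sums is that between the early genes and *FAMA* and was not seen in every late gene. These values chose the genes and were not tested.

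The same libraries stood at the ends of each group. Mock replicate 2 was the highest mock library in 5 and mock replicate 3 the lowest in all 6 of the called regulators, and DEX replicate 1 was the highest DEX library in 5 of them. Mock replicate 2, mock replicate 3 and DEX replicate 1 held the same places in the summed markers of the epidermis, of hair cells and of leaves. They also held them in *SCRM*, which was not called, in the guard cell sum and in the whole shoot list. In the photosynthesis sum mock replicate 3 was the highest mock library. The hypocotyl sum had the reverse order, with mock replicate 3 the highest and mock replicate 2 the lowest mock library, and DEX replicate 1 the lowest DEX library. Without mock replicates 2 and 3, an alternative chosen after seeing the data, the same 6 regulators were called lower. Those calls rest on part of the values that chose the genes, so nothing is read from them.

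The genes with the most similar profiles over the 8 libraries were sought among tested genes with a mean over 50, by the root mean square difference of centred log2 CPM. *AGL8*, also known as *FRUITFULL*, a MADS-box factor gene, was nearest to *SPCH*, at 0.171, and to *TMM*, at 0.182. The third nearest to *SPCH* was *POLAR*, at 0.178, and the second nearest to *TMM* was *SPCH*, at 0.208. *CGA1*, a GATA factor gene, at 0.072, and the hair factor genes *GL3*, at 0.083, and *MYB23*, at 0.104, were nearest to *POLAR*. *UMAMIT27*, at 0.073, and the myrosinase gene *TGG2*, at 0.106, were nearest to *FAMA*, and *HAI1*, a protein phosphatase gene of abscisic acid signalling, at 0.123, to *BASL*. Apart from *POLAR* and *SPCH*, the neighbours named lie outside the set, and their own log2 fold changes ranged from -1.45 for *AGL8* to -0.68 for *TGG2*. The profiles include the difference between DEX and mock libraries, so genes nearest to a lower regulator were bound to be lower too. Nothing is read from these fold changes.

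The other genes of the pathway did not move in a single direction. Of 35 further genes, 33 were tested, 3 were called lower, 3 were called higher and the median log2 fold change was 0.039. At an adjusted p under 0.01 with no fold change threshold, 7 were lower and 6 higher, against 8.69% and 10.9% of all tested genes. These genes were listed by role with earlier results of these data known.

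Among receptors, *ERECTA* (AT2G26330), which reads EPF peptides, was at 11954.2, 12143.6, 11509.1 and 11198 normalised counts in mock and at 9109.2, 9113.4, 7971 and 8590.3 in DEX libraries. All DEX libraries were below all mock libraries, but the log2 fold change of -0.43 (SE 0.05, adjusted p = 3.6e-05) did not reach the fold change of a call. Its relatives *ERL1* and *ERL2* had log2 fold changes of -0.29 (SE 0.07, adjusted p = 0.0055) and -0.25 (SE 0.05, adjusted p = 0.0042). The 4 co-receptor genes of the SERK family did not pass the test, with log2 fold changes from 0.02 for *BAK1* to 0.15 for *SERK1*.

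Among ligands, *EPFL9*, which encodes STOMAGEN, the peptide that competes with EPF2 and promotes stomata, had 118.3, 144, 123.1 and 97.6 normalised counts in mock and 78.1, 86.7, 64.2 and 64.1 in DEX libraries. It was called lower at -0.71 on the log2 scale (SE 0.15, adjusted p = 0.0030), but the call was lost without DEX replicate 3, at -0.65, and without DEX replicate 4, at -0.66. The stem-expressed peptide gene *EPFL6* passed the test at -0.36 (SE 0.09, adjusted p = 0.0078) without the fold change, and *EPFL4* and *EPFL5* did not pass. *CRSP*, whose protease product activates EPF2, was called higher, with 2024 ± 259 normalised counts in mock and 3344 ± 563 in DEX libraries, at 0.73 (SE 0.13, adjusted p = 0.0040). The *CRSP* call was lost without any one of mock replicates 2, 3 and 4 or DEX replicate 3, with log2 fold changes from 0.74 to 0.78 in these fits, and also without the filter on low counts.

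The 5 genes of the MAP kinase cascade were not lower in DEX libraries. *MPK3* was at 3490.4, 3145.4, 3845.5 and 3520.5 normalised counts in mock and at 5229.2, 5665.3, 7456.3 and 5816.7 in DEX libraries, and was called higher at 0.79 (SE 0.11, adjusted p = 0.00060). *MKK4* was called higher at 0.74 (SE 0.05, adjusted p = 1.9e-07), and *MKK5* passed the test at 0.53 (SE 0.06, adjusted p = 1.7e-05) below the fold change of a call. The cascade's first kinase gene *YDA*, at 0.14 (adjusted p = 0.027), and *MPK6*, at 0.02 (adjusted p = 0.66), did not pass, and *MPK6* took the opposite sign, at -0.022, when libraries were scaled by total counts. These kinases also act in defence and stress signalling. *MKK4* and *MPK3* share 10.1% and 10.3% of their exon bases with other genes.

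Among transcription factors, the *SCRM* relative *SCRM2* was called lower, at 852.6, 923.3, 808.5 and 891.9 normalised counts in mock and at 623.6, 587.5, 511.3 and 491.4 in DEX libraries. The log2 difference was -0.65 (SE 0.08, adjusted p = 4.0e-05), with no overlap between the groups, and the difference from its paralogue *SCRM* was not tested. *SOL1*, which acts at divisions in the lineage and shares 19.8% of its exon bases with another gene, was called lower at -0.72 (SE 0.10, adjusted p = 0.00012). The listed factor gene *TCX2*, with 20.3% of its exon bases shared, did not pass, at -0.125 (SE 0.05, adjusted p = 0.070) with overlapping groups. *HDG2*, an epidermal factor that promotes stomata and shares 26.2% of its exon bases, was at -0.43 (SE 0.11) with an adjusted p of 0.013. *FLP* and *MYB88*, MYB factors that limit the last division of the lineage, had log2 fold changes of 0.04 and 0.06 and did not pass.

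The 7 tested further polarity genes had log2 fold changes from 0.06 to 0.46. Among partners of BASL of the BRX family, *BRXL1*, at 0.46 (SE 0.07, adjusted p = 0.00051), and *BRXL4*, at 0.43 (SE 0.04, adjusted p = 1.2e-05), passed the test on the higher side without the fold change of a call, and *BRXL2* did not pass, at 0.06 (SE 0.04). Of the 3 tested cell cycle genes, which are used in many tissues, none passed, with log2 fold changes from -0.14 for *CYCA2;3* to 0.02 for *CDKB1;1*. *BSU1* and *CYCD7;1* had too few counts for the test.

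**Figure D3:**
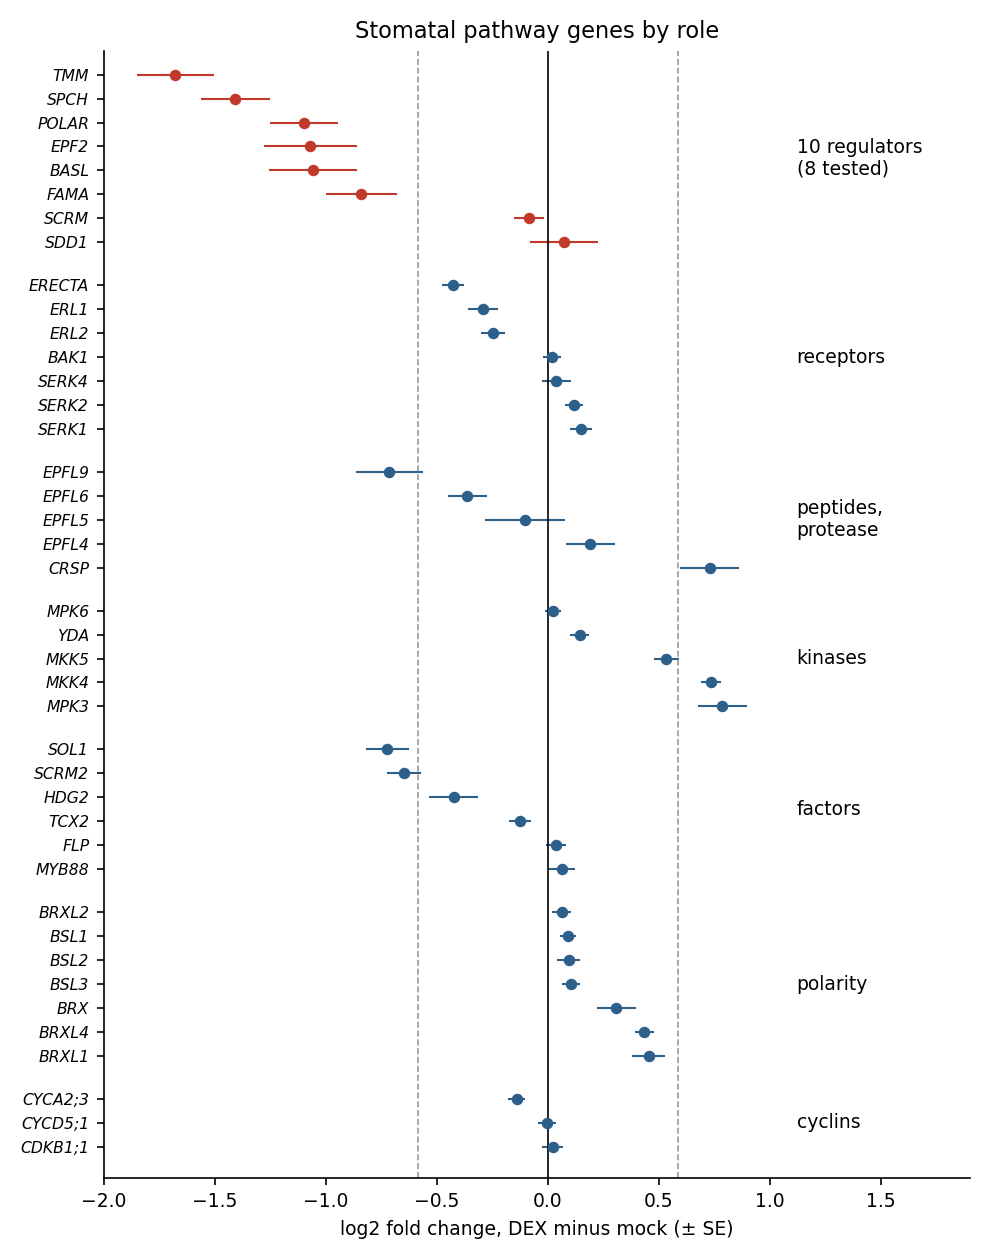
Log2 fold change of DEX minus mock with its standard error for the 8 tested regulators (red) and 33 further pathway genes (blue), grouped by role, with dashed lines at the fold change of a call. The 6 called regulators lie between -0.84 and -1.68, and the further genes between -0.72 and 0.79.

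Genes of finished guard cells, the product of the lineage, were set beside the regulators. Of 12, 9 were tested, 1 was called lower and 1 higher, and the median log2 fold change was 0.12. The myrosinase gene *TGG1*, which is also found in other myrosin cells, was called lower, with 52686 ± 9320 normalised counts in mock and 33179 ± 5229 in DEX libraries, at -0.67 (SE 0.15, adjusted p = 0.0092). This call was lost when any one library other than mock replicate 3 and DEX replicate 1 was left out, with log2 fold changes between -0.71 and -0.56. *CYP86A2*, a cutin synthesis gene with 41.0% of its exon bases covered by 2 overlapping genes, was called higher at 0.70 (SE 0.08, adjusted p = 1.9e-05).

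All 12 guard cell genes summed to 69.2% of mock in DEX libraries, a sum made up mostly of *TGG1*. Without *TGG1*, a split made after seeing the values, the other 11 summed to between 5773 and 6693 normalised counts in mock and between 7268 and 7983 in DEX libraries. DEX libraries were thus at 121% of mock without *TGG1*, the opposite direction to the whole list, beside 39.3% for the early and 54.3% for the late regulators. This difference lay mostly in *GORK*, *OST1*, *CYP86A2* and *SCAP1* and not in every gene. *MYB60*, *KAT2* and *HT1* were at 70.9%, 72.2% and 93.9% of mock and *KAT1* at 109%, and of these only *KAT2* passed the test. The kinase gene *OST1*, at 0.52 (SE 0.07, adjusted p = 0.00011), and the factor gene *SCAP1*, at 0.36 (SE 0.07, adjusted p = 0.0012), passed the test on the higher side below the fold change of a call, and the potassium channel gene *KAT2*, at -0.46 (SE 0.11, adjusted p = 0.0060), on the lower side. *GORK*, which also acts in roots and vascular tissue, held most counts of this sum, at 3671 ± 338 in mock and 4156 ± 238 in DEX libraries, and did not pass. *SLAC1*, *ALMT12* and *GC1* had too few counts for the test.

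The summed markers of several other cell types were also lower in DEX libraries. The 6 epidermis markers summed to between 36530 and 47035 normalised counts in mock and between 29284 and 34585 in DEX libraries, or 75.7% of mock. Of the 6, 2 passed the test at an adjusted p under 0.01 and 0 were called. *PDF1* held most counts of this sum and was at 69.9% of mock. *PDF2* and *ATML1* were at 73.6% and 76.2%, and *FDH*, *LTPG1* and *CER6* at 84.9%, 89.6% and 95.2%. The 10 leaf genes *YAB1*, *YAB2*, *YAB3*, *YAB5*, *KAN1*, *AS1*, *TCP4*, *TCP2*, *AN3* and *GRF5* were at 72.7% of mock, with DEX libraries between 67.0% and 79.5%. *AN3* held more counts than any other of them in mock libraries and was at 55.6% of mock. *AS1* and *YAB2* were at 90.2% and 100% with overlapping groups, and the rest lay between 61.4% and 79.3%. These leaf genes were split off, without being planned so, from a shoot list of 15 genes. The whole sum of that list was at 91.5% of mock, with DEX libraries between 87.3% and 97.0%. Of these 15, 14 were tested and 7 passed the test lower and 1 higher, the meristem gene *STM* at 0.53 (adjusted p = 2.1e-06). *STM* held more counts than any other gene of the shoot list, at 7780 ± 411 in mock and 11198 ± 169 in DEX libraries. Its rise is thus a large part of the gap between the whole sum and the leaf genes. *CLV3* was at 20.3 ± 5.11 normalised counts in mock libraries and *WUS* was too low to be tested. In the list of hair cell genes, at 73.4% of mock, *GL1*, *GL2* and *GL3* were called lower, and *CPC* and *TTG2* were at 99.4% and 99.3% of mock. *TRY* was at 68.7% of mock with overlapping groups and did not pass the test, at -0.53 (SE 0.19, adjusted p = 0.049).

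Single genes of these lists came near the regulators in size. *GL3*, a trichome factor, was at 274.5, 357.8, 238.5 and 300.1 normalised counts in mock and at 175.1, 145.4, 116 and 133.4 in DEX libraries, and was called lower at -1.03 (SE 0.15, adjusted p = 0.00019). *AN3*, which promotes leaf growth, was called lower at -0.85 (SE 0.08, adjusted p = 8.6e-06), *YAB1* at -0.70 (SE 0.08, adjusted p = 5.0e-05) and *GL2*, with 6.18% of its exon bases shared, at -0.73 (SE 0.10, adjusted p = 0.00013). *GL1*, at -0.88 (SE 0.19, adjusted p = 0.0063), lost its call without any one library other than mock replicate 3 and DEX replicate 1, with log2 fold changes between -0.88 and -0.75 in these fits.

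The 6 photosynthesis genes were at 74.9% of mock and 3 of them passed the test lower, with *LHCB1.1* called lower at -0.81 (SE 0.16, adjusted p = 0.0056) and this call lost without mock replicate 2 or any one of DEX replicates 2, 3 and 4, at -0.73 to -0.82. Markers of dividing cells were at 91.5% of mock with 0 of 6 passing the test, and the 11 genes of hypocotyl tissues at 110%. Of these 11, 2 passed the test lower, the cambium gene *WOX4* at -0.21 (adjusted p = 0.0073) and the phloem gene *SUC2* at -0.26 (adjusted p = 0.0017), and 2 higher, the phloem gene *APL* at 0.28 (adjusted p = 0.0015) and the cambium gene *ATHB8*, the only one called, at 0.78 (SE 0.06, adjusted p = 1.1e-06). *ATHB8*, at 4968 ± 341 normalised counts in mock and 8514 ± 600 in DEX libraries, made up a large part of the rise in the hypocotyl sum. The other genes of this list were between 75.5% and 122% of mock, so they did not rise as a group. Of the root list, whose sum was at most 68.5 normalised counts, only *WOX5* was tested and did not pass. The part of epidermis, leaf or other shoot tissue in the lower level of the regulators was not tested.

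**Figure D4:**
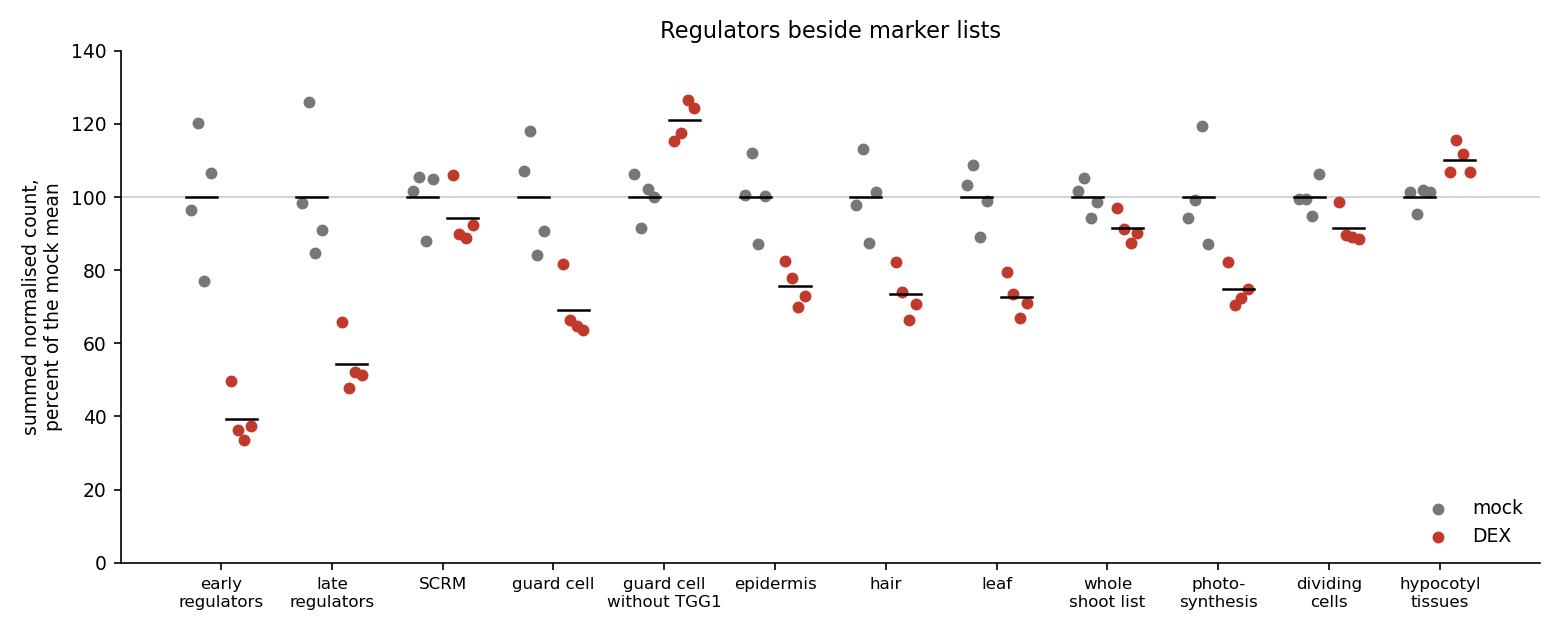
Summed normalised counts of the early and late regulators, of *SCRM* and of marker lists in each of 4 mock (grey) and 4 DEX (red) libraries, as percent of the mock mean of each sum, with the mean as a black line. The early sum is at 39.3% and the late sum at 54.3% of mock in DEX libraries, against 75.7% for epidermis, 72.7% for leaf genes, 91.5% for the whole shoot list, 69.2% for all guard cell genes and 121% for these without *TGG1*.

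To give the regulators relative to these tissues, their sums were divided by those of the markers in each library. The early sum was 42.2 ± 3.78 per 1000 counts of the epidermis markers in mock and 21.9 ± 2.63 in DEX libraries, or 52.0% of mock, and 54.0% when divided by the leaf genes. The late sum was 8.23 ± 0.754 and 5.92 ± 0.643, or 72.0%, and 74.9% relative to the leaf genes. All DEX libraries were below all mock libraries in each of these 4 ratios.

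When all libraries were scaled to the epidermis markers or to the leaf genes, alternatives chosen after seeing the data, *SPCH*, *TMM*, *EPF2*, *BASL* and *POLAR* were called lower and *FAMA* was not. Of 21289 tested genes, 105 were called lower and 2999 higher with the epidermis scaling, and 82 lower and 4132 higher with the leaf scaling. With TMM normalisation, 386 were called lower and 987 higher. The epidermis and leaf scalings raised the median log2 fold change of all tested genes to 0.388 and 0.450. *FAMA* then stood at -0.44 and -0.38, and *SCRM* took the opposite sign, at 0.31 and 0.37. Subtracting those medians gave -0.82 and -0.83 for *FAMA* and -0.07 and -0.08 for *SCRM*. This step largely undoes the scaling, so values near those with TMM were fixed in advance and nothing is read from them.

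**Figure D5:**
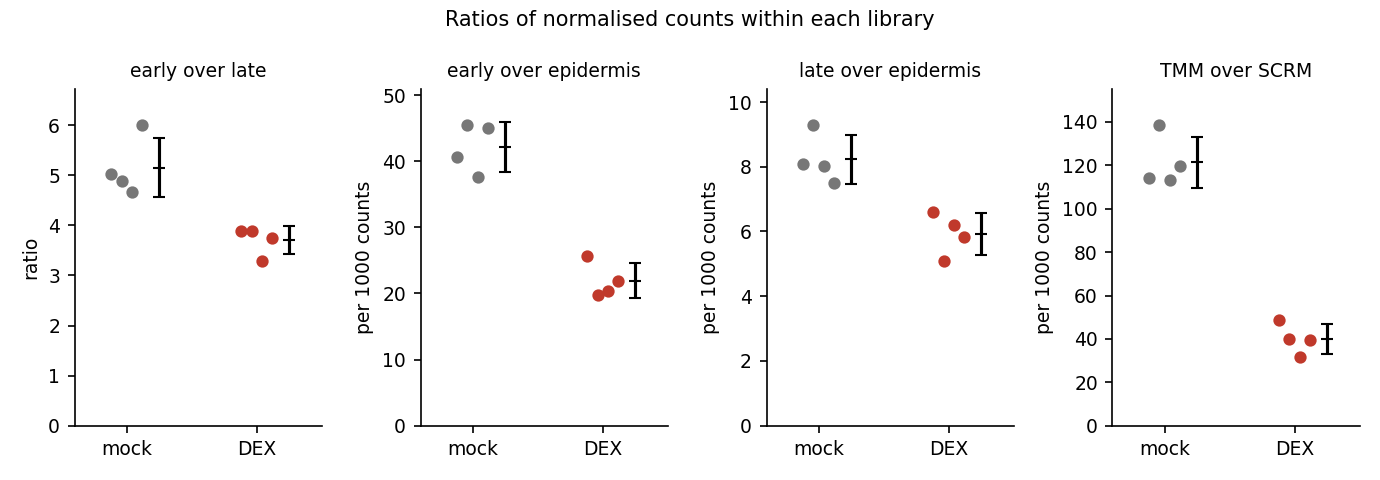
Ratios of summed normalised counts within each of 4 mock (grey) and 4 DEX (red) libraries, with the mean and SD in black, for early over late regulators, early and late regulators per 1000 counts of the epidermis markers, and *TMM* per 1000 counts of *SCRM*. No ratio overlaps between the groups, and early over late lies between 4.67 and 6.0 in mock and between 3.30 and 3.90 in DEX libraries.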

How the data were processed

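RNA was sequenced from 4 mock and 4 DEX libraries of hypocotyls, as grouped by the sample labels. The labels do not say that libraries came from separate plants, so p-values measure the spread between these libraries, which may be technical. The submitters' processing notes name STAR 2.7.8a, DESeq2 1.34.0 and TAIR10. The authors deposited raw counts of uniquely mapped reads per gene, counted by summarizeOverlaps (union mode, strand ignored), so reads on bases shared by overlapping genes are left out or cannot be assigned to a strand. The annotation is not given in the sources used here. A second deposited table holds signal values, counts that the authors divided by DESeq2 size factors, and was used only to compare those factors, which ran from 0.802 to 1.46, with ones recomputed here. The single-nucleus data were not analysed here.

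Counts were normalised by TMM, filtered by filterByExpr and compared in edgeR 4.0.16 (R 4.3.3) with its quasi-likelihood test and no replicate block, with Benjamini-Hochberg adjustment over 21289 genes. The standard error of a log2 fold change was its size over the root of F. Profiles used log2 CPM with a prior count of 2. Pairs of libraries within a group had a chi-square per gene from 6.25 to 25.2, above sampling noise. The scripts were tested on simulated data. Names, exons and upstream windows came from RefSeq's TAIR10.1. Named were the 10 regulators, called genes of the lists, 10 partners whatever their value, and the 3 genes nearest in profile to each regulator, of which some are given. Other genes were named to complete a group. The regulators and lists were chosen with earlier results of these data known. Alternatives were DESeq2 1.42.0, other size factors and filters, other thresholds, a replicate block, other early gene sets and leaving out each library.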

Additional observations from a re-analysis of the deposited data

Results flagged for a closer look

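In a search of 68 groups of 4 libraries, covering the regulators, the named list genes and the early and late sums, 1 library stood far from the other 3 of its group by Dixon's criterion, and chance gives about 1 in 20. This was *SPCH* in DEX replicate 1, at 231.79 normalised counts, where the other DEX libraries held between 165.66 and 175.68. Without DEX replicate 1 *SPCH*, which was chosen on this contrast, was called lower as well. The same library had the highest DEX sums of the epidermis, hair cell and leaf lists. It was also the highest DEX library for *SCRM* and for the guard cell, whole shoot, photosynthesis and dividing cell sums, and the lowest for the hypocotyl sum.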

How the results depend on the processing

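The 6 regulators *SPCH*, *FAMA*, *TMM*, *EPF2*, *BASL* and *POLAR* were called lower with DESeq2, with DESeq2 size factors, with total counts, with each filter and threshold tried, and without any one library. The regulators were chosen on this contrast in the same libraries. The repeated calls therefore describe the processing and are not independent support for a difference. Leaving out single libraries gave early sums between 35.8% and 42.1% and late sums between 50.5% and 59.5% of mock. Scaling to epidermis markers and to leaf genes gave 52.0% and 54.0% for the early and 72.0% and 74.9% for the late sum. With these scalings *SCRM* took the opposite sign, at 0.31 and 0.37, because they moved the median of all genes to 0.388 and 0.450. Subtracting that median, which largely undoes the scaling, put *SCRM* at -0.075 and -0.077, against -0.079 with TMM treated alike. *SDD1* reversed to -0.032 without DEX replicate 4, in a range up to 0.144 without DEX replicate 2, and *MPK6* to -0.022 with total counts. The causes of the last 2 were not tested. With no fold change threshold 7 pathway genes were lower and 6 higher, and 2 guard cell genes were lower and 3 higher, since fewer conditions applied. Without the filter on low counts 0 guard cell genes were called lower and 2 pathway genes higher, *CRSP* losing its call. Single libraries left out gave 2 to 3 pathway genes in each direction and 0 to 1 guard cell genes lower.

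With a replicate block, 6 regulators, 3 pathway genes and 1 guard cell gene were called lower and 387 of all genes, and of the named genes only *LHCB1.1* lost its call, at -0.80. Deviations of same-numbered libraries correlated at 0.014, 0.049, 0.072 and -0.010, so the numbers were not taken to pair the libraries.

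Depth limits *MUTE* and *EPF1*, with at most 32 and 28 reads per library. Tested without the filter on low counts, their log2 fold changes were -1.48 (SE 0.38) and -1.34 (SE 0.46).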
